A study of Drosophila melanogaster with 8 samples.

Results

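Fbp1, Fbp2 and Lsp2 are genes of the larval fat body, the insect organ that combines tasks of liver and fat tissue. They were chosen by name, with earlier results of these data known. Every spot whose symbol in the probe table was Fbp1, Fbp2 or Lsp2 was taken, and the spots of a gene were averaged on each array. This gave 3 genes of the 6793 named genes measured, with 4 spots for Fbp1 and 2 each for Fbp2 and Lsp2. The other larval serum protein genes, Lsp1alpha, Lsp1beta and Lsp1gamma, were not among these named genes, so they could not be analysed here.

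During the last larval instar of Drosophila melanogaster the fat body secretes hexamerins, large storage proteins, into the haemolymph. Before metamorphosis it takes them back up and stores them in granules as a source of amino acids for building the adult. Lsp2 encodes the subunit of one such hexamerin, larval serum protein 2. Fbp1 encodes a protein of the fat body that serves as receptor for the uptake of larval serum protein 1, and its transcription is a classical response to the steroid hormone ecdysone. Fbp2 encodes a fat body protein related in sequence to alcohol dehydrogenase.

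The values come from 8 spotted arrays read in 2 colours, 4 of the Rover and 4 of the sitter background, natural variants of larval foraging behaviour. Per the labels, one channel of each array held total RNA of untreated larvae of that background and the other total RNA of equally untreated DGCalpha1[3] larvae of that background. DGCalpha1[3] is an allele of the gene for a subunit of soluble guanylyl cyclase, an enzyme that makes cGMP. The larvae were of the third instar. Whether larvae were pooled, their exact age within the instar, and whether the arrays of a background came from separate extracts are not stated, so the p-values speak for the spread between arrays alone, and that spread may be technical. The arrays are called Rover 1 to 4 and sitter 1 to 4.

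Each value is the log ratio of the 2 channels, taken as log2, since no base is given. Which RNA carried Cy3 and which Cy5, and which was the numerator, is not stated. Ratios are therefore described as positive or negative, and no direction relative to the mutant is drawn from them. Means, differences and correlations take the same numerator on all arrays, which is not stated either. The ratios were not centred on 0: the median over 19325 features (the named genes and 12532 spots without a single gene name) lay between -0.11 on sitter 1 and -0.50 on Rover 4. Values relative to this median are called centred. The gene that carries the allele, Gycalpha99B, had log2 ratios of -0.67, -0.96, 0.14 and 0.45 on Rover 1 to 4 and 0.18, -0.52, -0.32 and -0.40 on sitter 1 to 4, of both signs in each background. Its means of -0.26 ± 0.66 in Rover and -0.27 ± 0.31 in sitter (SD, n = 4 each) did not pass limma's test (adjusted p = 0.396 and 0.451). As the place of its probes relative to the allele is not stated, this does not check the labels. The RNA was of whole larvae, so fewer fat body cells and less RNA per fat body cell cannot be told apart. A ratio holds no level of expression, so the presence of a tissue could not be checked from marker levels.

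Fbp2 had a positive ratio on all 4 Rover arrays and a negative ratio on all 4 sitter arrays. Its log2 ratio was 0.12 on Rover 1, 0.57 on Rover 2, 3.78 on Rover 3 and 1.67 on Rover 4. In sitter it was -0.02 on sitter 1, -0.36 on sitter 2, -0.96 on sitter 3 and -4.27 on sitter 4. The backgrounds did not overlap, but Rover 1 and sitter 1 were apart by only 0.14, whereas Rover 3 and sitter 4 lay far out on either side. Relative to the array medians the value on sitter 1 turned to 0.09, and the backgrounds still did not overlap.

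Lsp2 followed Fbp2 with smaller positive values. Its log2 ratio was -0.04, -0.39, 1.75 and 0.79 on Rover 1 to 4. On sitter 1 to 4 it was -0.24, -0.69, -1.49 and -3.84. Here the backgrounds overlapped by a single pair of arrays, as Rover 2 lay below sitter 1. Of the 16 pairings of a Rover with a sitter array, Rover was the higher in 15, and in 16 after centring. An antisense RNA gene overlaps Lsp2 in the Release 6 annotation, and as the strand of the spotted probes is not stated, transcripts of the 2 strands cannot be told apart.

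Fbp1, the receptor gene, differed from both. Its log2 ratio was -0.81, -0.67, 0.85 and 1.32 on Rover 1 to 4. On sitter 1 to 4 it was -0.20, -1.53, -2.08 and -0.50. It was high on the same Rover arrays, Rover 3 and Rover 4. It was lowest on sitter 3. On sitter 4, where Fbp2 and Lsp2 were lowest, it had its second least negative sitter value, -0.50. The backgrounds overlapped, as Rover 1 and Rover 2 lay below sitter 1 and sitter 4.

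**Figure D1:**
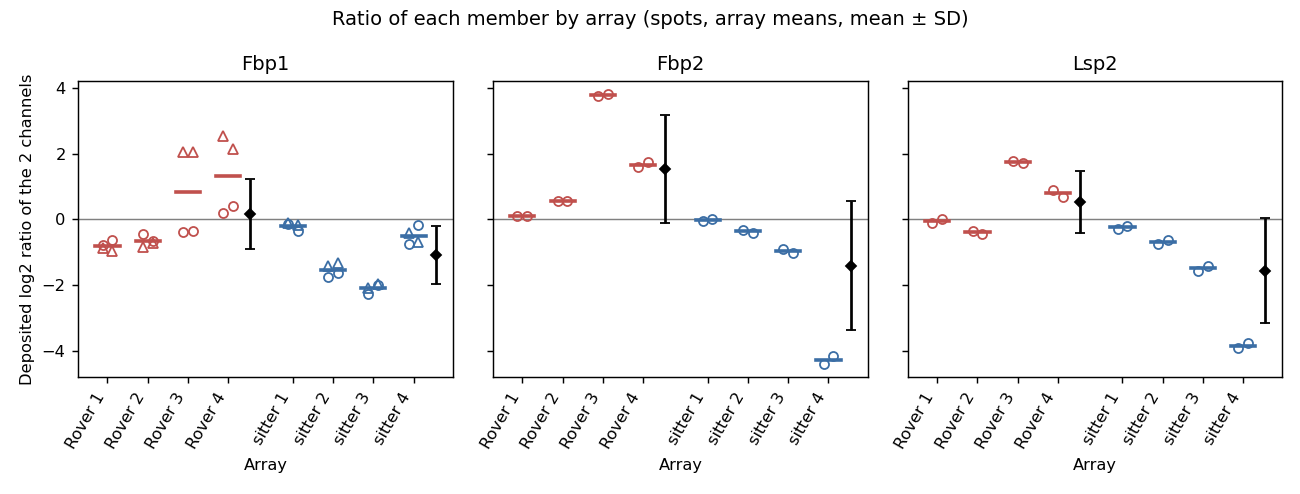
Deposited log2 ratio of Fbp1, Fbp2 and Lsp2 (vertical axes) on each array (horizontal axes), Rover in red and sitter in blue. Open symbols are single spots (for Fbp1, circles are the first and triangles the second spot pair), coloured bars are array means, and black diamonds with bars are the mean ± SD of the 4 arrays; Fbp2 reaches 3.78 on Rover 3 and -4.27 on sitter 4, and Lsp2 has the same extremes at 1.75 and -3.84.

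The spots of a gene are repeated measurements within an array, and they were close together for Fbp2 and Lsp2. Over the 4 neighbouring spot pairs of the 3 genes on 8 arrays, the gap within a pair ran from 0.000404 to 0.576 with a median of 0.119. For all same-gene neighbouring pairs of the table the median gap was 0.183. The spread of Fbp2 and Lsp2 between arrays was thus many times the spread between their spots.

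For Fbp1 the average hides a disagreement between its 2 spot pairs, which lie far apart in the spot numbering. The pairs differed by 0.33 or less on 6 of the 8 arrays. On Rover 3 the first pair was at -0.36 and the second at 2.05, and on Rover 4 they were at 0.31 and 2.34. Among the 627 genes with exactly 2 such pairs, 8 (1.28%), Fbp1 included, had a difference at least as large on Rover 3, and 1 (0.159%), Fbp1 itself, on Rover 4. In sitter the pairs gave the same order of arrays, at -0.25 and -0.15 on sitter 1, -1.70 and -1.37 on sitter 2, -2.13 and -2.02 on sitter 3, and -0.45 and -0.55 on sitter 4. The 4 negative sitter values of Fbp1 are therefore shared by both pairs, whereas its strongly positive Rover values came from the second pair alone. Which part of the transcript, or which clone, each pair holds is not stated in the sources used here.

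**Figure D2:**
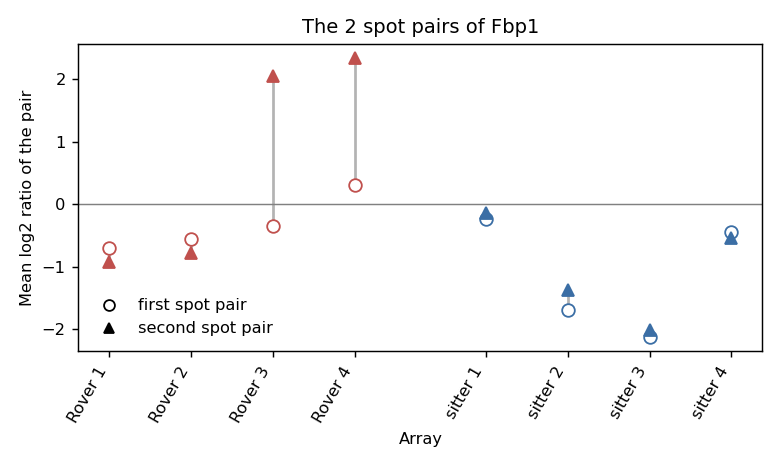
Mean log2 ratio of the first (open circles) and second (triangles) spot pair of Fbp1 (vertical axis) on each array (horizontal axis), Rover in red and sitter in blue, with a grey line joining the pairs of an array. The pairs part on Rover 3 (-0.36 and 2.05) and Rover 4 (0.31 and 2.34) and lie within 0.33 of each other elsewhere.

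In the Rover background the mean log2 ratio was 1.54 ± 1.63 (SD, n = 4) for Fbp2, 0.53 ± 0.95 (SD, n = 4) for Lsp2 and 0.17 ± 1.07 (SD, n = 4) for Fbp1. Limma, with Benjamini-Hochberg adjustment over all 19325 features, gave adjusted p-values of 0.122, 0.474 and 0.769. With limma 0 of the 3 genes were called, and 0 had an unadjusted p under 0.05, where 46.7% of all features were called (45% negative and 1.7% positive) and 52.7% had such an unadjusted p. After centring, the means were 1.94, 0.94 and 0.58 and the adjusted p-values 0.0532, 0.169 and 0.246, with 48.1% of features called. The Rover mean of Fbp2 rested on Rover 3, without which it was 0.79, and that of Lsp2 was 0.12 without the same array. For Fbp1 the sign itself depended on the data used: -0.21 without Rover 4, -0.05 without Rover 3 and -0.32 for its first spot pair alone.

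In the sitter background all 3 means were negative, at -1.57 ± 1.60 (SD, n = 4) for Lsp2, -1.40 ± 1.95 (SD, n = 4) for Fbp2 and -1.08 ± 0.88 (SD, n = 4) for Fbp1. The limma adjusted p-values were 0.0652, 0.204 and 0.085, so 0 of 3 genes were called where 23.7% of all features were (4583, but 24 without sitter 2 and 22 without sitter 3). Lsp2 and Fbp1 had an unadjusted p under 0.05, as had 38% of all features. Centred, the means were -1.37, -1.21 and -0.88 with adjusted p-values of 0.101, 0.245 and 0.14, and 13.3% of features were called. Without sitter 4 the mean of Fbp2 was -0.45 and that of Lsp2 -0.81. Fbp1, by contrast, depended on sitter 3, without which its mean was -0.74. Its first spot pair alone, at -1.13, passed with a limma adjusted p of 0.0321.

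The design also asks whether the ratio depends on the background. Fbp2 differed most, Rover minus sitter being 2.94 ± 1.04 on the log2 scale (SE; 95% interval 0.58 to 5.30; limma adjusted p = 0.458). Lsp2 differed by 2.09 ± 0.77 (SE; 95% interval 0.35 to 3.83; limma adjusted p = 0.464) and Fbp1 by 1.25 ± 0.58 (SE; 95% interval -0.06 to 2.56; limma adjusted p = 0.55). Limma called 0 of the 3 genes, against 0.0466% of all features (0.0776% centred). At an unadjusted p under 0.05 stood Fbp2 (0.0202) and Lsp2 (0.0235) but not Fbp1 (0.0588), where 9.4% of all features did. Among the 6793 genes the differences of Fbp2, Lsp2 and Fbp1 ranked 3, 6 and 20 from the most positive, while by p-value they ranked 371, 422 and 878: large differences with a large spread.

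An exact two-sided permutation test over the 8 arrays, run for each of the 3 genes, gave p = 0.0286 for Fbp2, the smallest value that 4 arrays against 4 allow. The same exact test gave 0.0571 for Lsp2 and 0.171 for Fbp1, and after centring 0.0286, 0.0286 and 0.143. Because the genes were chosen with earlier results of these data known, these p-values and the ranks above are descriptive only. In these data 1.44% of all features had every Rover array above every sitter array, and 6.2% after centring, which is 278 and 1198 features, Fbp2 being among the first and both Fbp2 and Lsp2 among the second. All Rover arrays positive with all sitter arrays negative, as for Fbp2, held for 0.388% of features as deposited.

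The arrays came from 2 print lots. Rover 1 and sitter 1 belonged to lot A, with a hybridisation of 15.75 hours, and the remaining 6 to lot B, with 17.75 hours. Between the lot A arrays, Rover minus sitter was 0.14 for Fbp2, 0.20 for Lsp2 and -0.61 for Fbp1. Within lot B it was 3.87, 2.73 and 1.87. Fbp2 and Lsp2 were thus close between the backgrounds in lot A, with 1 array each, and apart in lot B, with 3 arrays each, while Fbp1 differed in opposite directions in the 2 lots. Scanner gain for Cy5 was 64 on 5 arrays and 67 or 68 on Rover 1, sitter 1 and sitter 4. At the lower gain the difference was 2.67 for Fbp2, 1.81 for Lsp2 and 2.31 for Fbp1, and at the higher gain, with 1 Rover and 2 sitter arrays, it was 2.26, 2.0 and -0.46. The differences of Fbp2 and Lsp2 had about the same size at both gains, but at the higher gain they rested on sitter 4 (-4.27 and -3.84). Between Rover 1 and sitter 1 they were the 0.14 and 0.20 given for lot A. The difference of Fbp1 changed sign between the gains.

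**Figure D3:**
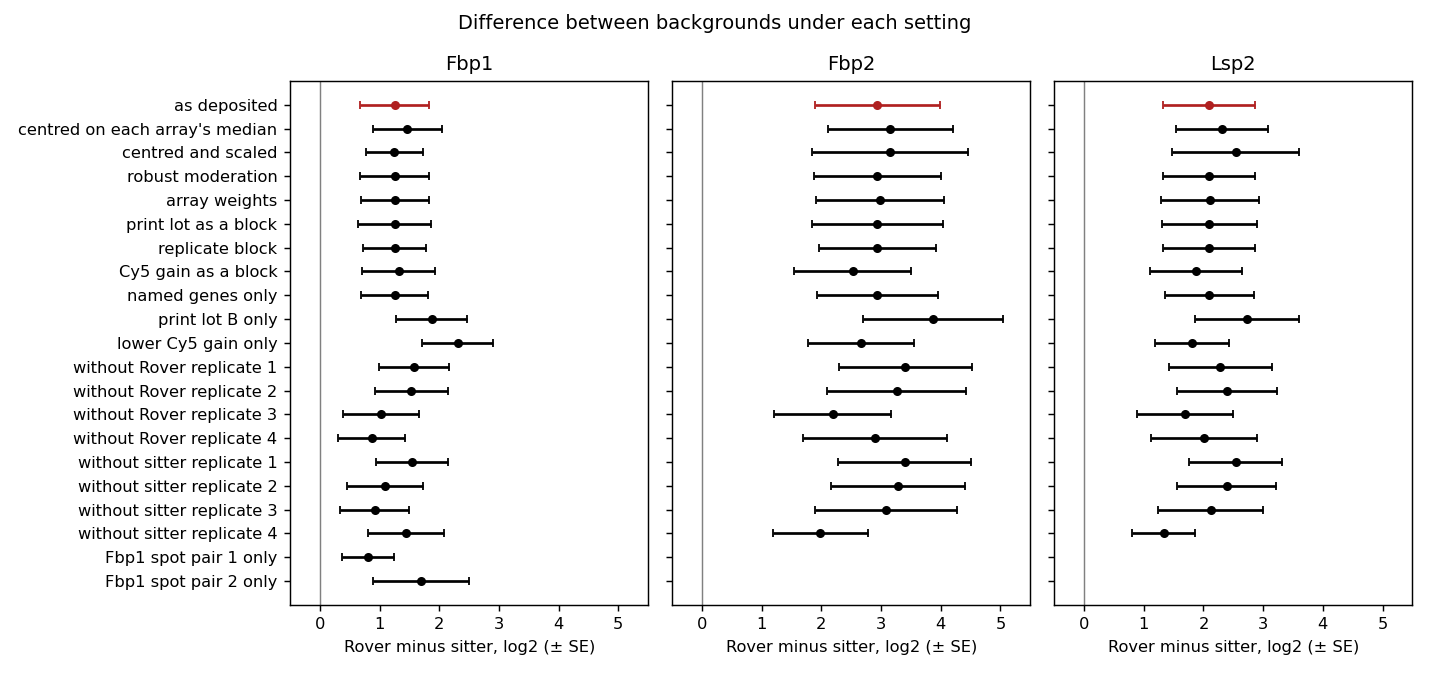
Rover minus sitter difference of each gene on the log2 scale (horizontal axes, ± SE) under each setting of the fit (vertical axis), the deposited values in red. All estimates are positive, from 0.81 for the first spot pair of Fbp1 to 3.87 for Fbp2 in print lot B alone; the settings share arrays and are not independent.

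Setting the genes within each array leaves aside the scale of the arrays. Fbp2 ranked 2 from the top of 6793 genes on Rover 3 and 2 from the bottom on sitter 4. Lsp2 ranked 13 from the top on Rover 3 and 3 from the bottom on sitter 4. Fbp1, averaged over its disagreeing spot pairs, ranked 16 from the top on Rover 4 and 20 from the bottom on sitter 3. On sitter 4, where the others were at the very end, 11.5% of genes lay below Fbp1. On sitter 1 all 3 lay in the middle of the genes, with 61.5% of genes below Fbp2, 33.4% below Fbp1 and 28.3% below Lsp2.

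Few genes varied as much between arrays of one background. In sitter the SD of Fbp2 ranked 4 and that of Lsp2 ranked 9 among 6793 genes, against a median SD of 0.23. In Rover they ranked 12 and 118, against a median of 0.29. Fbp1 ranked 71 in Rover and 72 in sitter. By Dixon's ratio, the gap between an extreme array and its neighbour over the range, no array of any of the 3 genes passed the 95% critical value for 4 arrays, the nearest being sitter 4 for Fbp2 at 0.778.

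**Figure D4:**
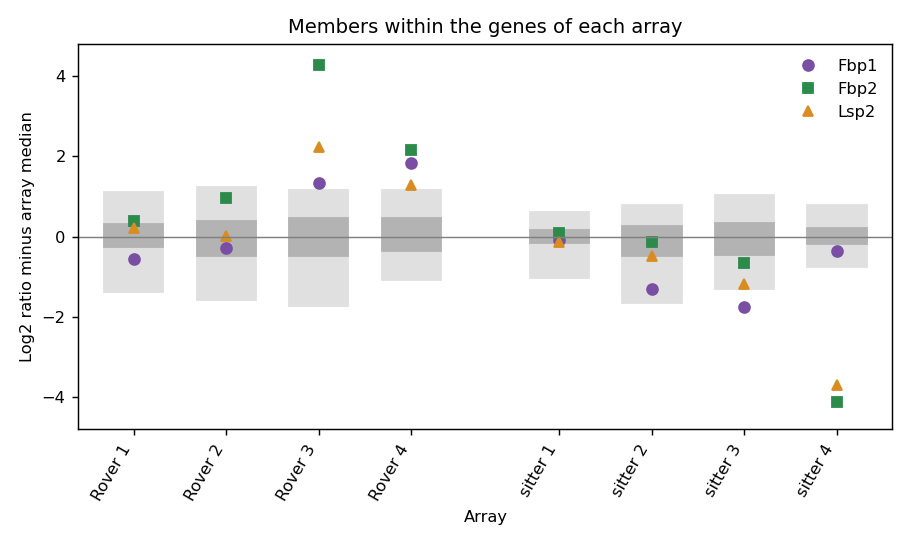
Centred log2 ratio (vertical axis) of Fbp1 (purple circles), Fbp2 (green squares) and Lsp2 (orange triangles) on each array (horizontal axis). Light grey boxes span the 1st to 99th and dark grey boxes the 25th to 75th percentile of the 6793 genes of that array. All 3 genes lie above the light box on Rover 3 and Rover 4, and Fbp2 and Lsp2 lie far below it on sitter 4. Fbp1 is shown as the mean of its 2 spot pairs. Its first pair lay within the range of the light box on Rover 3 (0.14) and Rover 4 (0.81).

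Fbp2 and Lsp2 ran together over the 8 arrays, with a correlation of 0.99 (Pearson) or 0.98 (Spearman) between their centred ratios, and of 0.97 after each background's mean was taken out. They did not move by the same amount. The ratio of Fbp2 exceeded that of Lsp2 by 0.16 to 2.03 on the Rover arrays and by 0.22 to 0.53 on sitter 1 to 3, and fell below it on sitter 4, by -0.43. Fbp1 ran with them less closely, with an r of 0.61 to Fbp2 and 0.60 to Lsp2, and of 0.29 and 0.28 after the background means were taken out. Its first spot pair alone had an r of 0.42 to Fbp2 and 0.43 to Lsp2, and its second of 0.68 and 0.66. On sitter 4 the ratio of Fbp1 exceeded that of Fbp2 by 3.77 and that of Lsp2 by 3.34. These correlations rest on 8 arrays of 2 print lots, with a difference between backgrounds, and are given as descriptions.

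Over all other named genes, 52 of 6790 had an r of at least 0.9 with the mean of the 3 members over the 8 centred arrays. The 5 highest were Obp99b, of the odorant-binding protein family (0.98), CG8170 (0.98), CG30467 (0.97), the cuticle protein gene Cpr49Ac (0.97) and FucTB, of the fucosyltransferase family (0.96). The lowest were CG3246 at -0.97, CG11327 at -0.94 and pn at -0.93. High r did not mean a change of like size. The centred ratio of FucTB spanned 7.58 between its lowest and highest array and that of Obp99b 6.32, whereas CG8170, CG30467 and Cpr49Ac spanned 1.22, 0.93 and 1.51. Without the 2 arrays on which the members lay farthest from their median, r was between 0.88 and 0.95 for the 5 genes. As they were picked for high r over all 8 arrays, a high r on the remaining arrays follows in part from that choice.

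Gene by gene, with the members left out of the search, Fbp2 was nearest to FucTB (r = 0.99) and to ND-ASHI, of respiratory complex I (0.98). Lsp2 was nearest, among the same genes, to CG1850 and FucTB (0.98 each). Fbp1, averaged over its spot pairs, was nearest to CG15365 (0.98) and m-cup (0.97). FucTB reached 3.66 on Rover 3 and -3.56 on sitter 4, and on no array was it more than 0.71 from Fbp2. Obp99b reached 2.57 and -3.39 on the same arrays, and CG1850 reached 3.26 and -5.75. The genes nearest to Fbp1 spanned much less, 1.78 for CG15365 and 1.83 for m-cup. By limma, Rover minus sitter did not pass for any of FucTB (2.51, adjusted p = 0.466), Obp99b (1.96, 0.55) or CG1850 (2.93, 0.531).

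FucTB is also a neighbour of Fbp2 in the genome. In the gene order of Release 6 a single gene, CG42847, lies between them, and its annotated span overlaps both that of Fbp2 and that of FucTB. The spots of FucTB are 1429 or more spot numbers away from those of Fbp2; their place on the slide was not analysed here. The correlation with Fbp2 was -0.46 for Mco1, on the other side of Fbp2, and -0.16 for scat, beyond FucTB. Mco1 had means of -1.07 ± 0.34 and -0.62 ± 0.58, Rover first, and scat of -0.53 ± 0.28 and -0.48 ± 0.46 (SD, n = 4 each). Whether transcripts or probes of Fbp2 and FucTB share sequence was not tested. Around the other genes, CG8100 next to Fbp1 had an r of 0.12 with it and a Rover minus sitter difference of 0.20. CG5645, near Lsp2, had an r of 0.77 with it and a difference of 0.02.

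**Figure D5:**
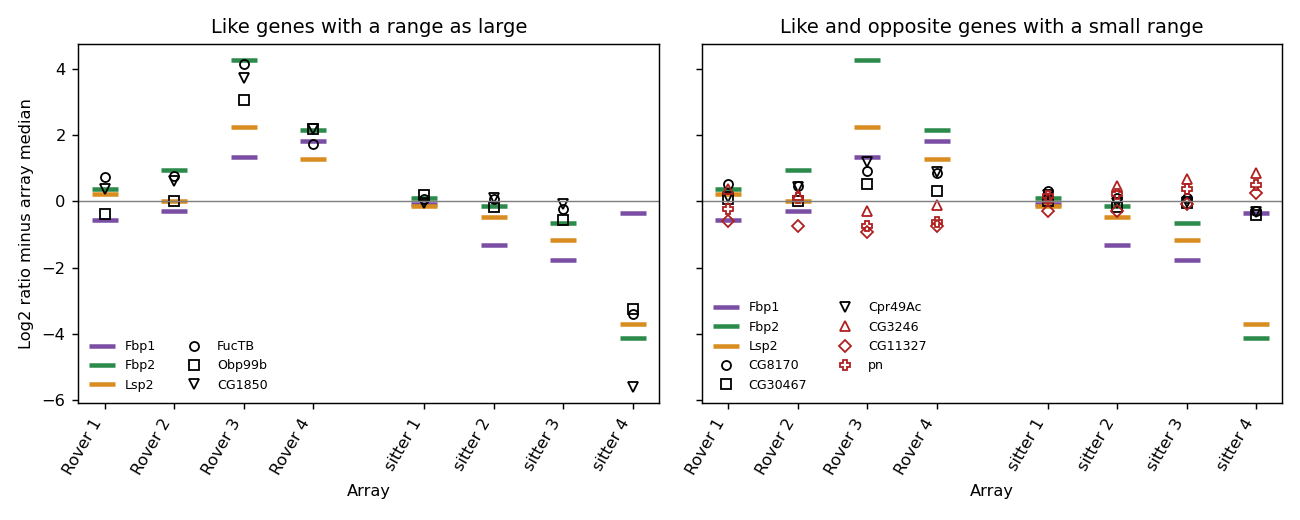
Centred log2 ratio (vertical axes) on each array (horizontal axes) of the members (coloured bars) and of genes most like them (black) or most opposite (red). On the left the ranges are 6.32 for Obp99b, 7.58 for FucTB and 9.36 for CG1850; on the right the ranges lie between 0.93 and 1.51.

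Lists of genes that share a tissue, a sequence family or a hormone with the members were set beside them. Over all features, limma called 0.0466% in Rover minus sitter as deposited, and 9.4% had an unadjusted p under 0.05. With a share that small, 0 calls in a short list says little about its genes. Of the 14 measured genes of fat body lipid and lipoprotein metabolism 0 were called in Rover minus sitter by limma, while 3 had an unadjusted p under 0.05, and their median difference was -0.04 against -0.17 for all genes. The lipid droplet gene Lsd-2 differed by 0.48, apolpp, for the main lipid carrier of the haemolymph, by 0.48, and the fatty acid synthase gene FASN1 by -0.40. These 3 genes had SDs of 0.08 to 0.22 within a background, far below those of the members. The next gene of the list by p, mdy, differed by -0.50, with SDs of 0.17 in Rover and 0.55 in sitter. For the Rover background limma called 3 of the 14, all of negative ratio, as deposited, a smaller share than the 45% of all features called negative. With centred ratios it called 5 of them, 4 positive and 1 negative, where 24.7% of all features were called positive and 23.4% negative. Of the 7 measured fat body genes for secreted proteins and metabolic enzymes 0 were called in the difference by limma and 0 had an unadjusted p under 0.05, as with Cbs at -0.39 and cn at -0.65.

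Adh, for alcohol dehydrogenase, the relative of Fbp2, went against it on the Rover arrays. Its log2 ratio was -0.39, -0.40, -2.58 and -1.15 on Rover 1 to 4 and between -0.35 and -0.49 in sitter. It was lowest where Fbp2 was highest, on Rover 3, and hardly varied in sitter. Its Rover mean of -1.13 was called as deposited (limma adjusted p = 0.0153) and not after centring (0.0576), and Rover minus sitter was -0.71 (limma adjusted p = 0.623).

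Of the 13 measured ecdysone response genes limma called 0 in the difference, where 0.0466% of all features were called. ImpL1 (-0.41) was the 1 gene at an unadjusted p under 0.05, as were 9.4% of all features. The median difference was -0.18, near that of all genes. The ecdysone receptor gene EcR was at -0.79 ± 0.23 (Rover, limma adjusted p = 0.0031) and -0.43 ± 0.31 (sitter, 0.0512; SD, n = 4 each). Its partner usp was at 0.12 and -0.25, not passing in either as deposited. After centring, EcR was at -0.38 in Rover (limma adjusted p = 0.0304) and -0.24 in sitter (0.17). Centred usp was at 0.52 in Rover (limma adjusted p = 0.0089) and -0.05 in sitter (0.739). For the Rover background limma called 7 of the 13, all of negative ratio, as deposited, near the 45% of all features called negative. With centred ratios it called 2 negative and 1 positive, against 23.4% and 24.7% of all features. Npc1a, a sterol transport gene, was the 1 measured gene of the ecdysteroid synthesis list, with a difference of 0.26. Among the 10 measured regulators of fat body genes 0 were called in the difference by limma and 0 had an unadjusted p under 0.05. The shares of all features were again 0.0466% and 9.4%. The insulin-responsive factor gene foxo was at 0.27 in Rover and -0.03 in sitter, and the nuclear receptor gene Hnf4 at -0.68 and -0.36. In Rover as deposited Hnf4 passed (limma adjusted p = 0.0061) and foxo did not (0.0713). With centred ratios foxo passed (0.68, limma adjusted p = 0.00564) and Hnf4 did not (-0.27, 0.105).

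The salivary glue and late puff genes are also genes of the end of larval life. Eig71Ee was high on Rover 3 (3.63) and Rover 4 (4.75) like the second spot pair of Fbp1, and low on sitter 3 (-5.03) like both pairs of Fbp1. On sitter 2, where Fbp1 was at -1.53, it was at -0.17, and on sitter 4 it was at -0.98. Sgs4 was at -3.15 and -3.71 on Rover 1 and Rover 2, where the members lay between -0.81 and 0.57. On Rover 3 and Rover 4, where Eig71Ee and the second spot pair of Fbp1 were high, Sgs4 was negative too, at -0.83 and -0.56. The gene ng2 was at -2.05 and -1.39 on these arrays. Of the 6 measured genes 0 were called in the difference by limma, as were 0.0466% of all features. An unadjusted p under 0.05 was reached by 3 of them and by 9.4% of all features. The 3 differed in opposite directions: ng2 by -1.21, Sgs4 by -1.86 and Eig71Ee by 3.42. The median difference of the 6 genes was -0.36.

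Lists named after other larval tissues were compared by the mean of each list. Whether their genes are expressed only there, and not in the fat body as well, was not tested. The mean centred ratio of the 7 haemocyte markers lay between -0.11 and 0.05 on the Rover arrays and between -0.42 and -0.06 on the sitter arrays. For the 5 midgut markers the ranges were 0.01 to 0.36 and -0.36 to 0.14, and for the 6 body wall muscle markers -0.01 to 0.57 and -0.19 to 0.30. The 2 cuticle markers ranged from -0.28 to -0.03 and from -0.61 to -0.17, and the 2 neural markers from 0.27 to 0.53 and from 0.17 to 0.48. Limma called 0 markers of these 5 lists in the difference as deposited, against 0.0466% of all features. An unadjusted p under 0.05 was reached by 1 each of the haemocyte, midgut and neural markers, and by 9.4% of all features. After centring, 0.0776% of all features were called, among them 1 haemocyte marker, the prophenoloxidase gene PPO2. Its difference was 0.96 as deposited (limma adjusted p = 0.102) and 1.18 centred (0.0438). Of the haemocyte list, vkg, Col4a1 and Hml differed by -0.30, -0.27 and -0.10 as deposited. Their Rover means were -0.95, -0.60 and -0.81, against 0.41 for PPO2, so the mean of the list joins ratios of opposite sign. The part of tissue make-up in the members' values was not tested.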

How the data were processed

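Total RNA of whole larvae was compared on 8 spotted arrays, 4 per background. Per the labels' protocols, 80 µg of RNA entered each direct labelling, the scanner was a ScanArray 4000, and QuantArray version 3 measured the spots by its adaptive method without subtracting background. The deposited log2 ratios, 1 per spot and array, were made by the authors from normalised data. The normalisation, the log base, the dye of each RNA and the numerator are not given in the sources used here. Signal over background was not available, so precision is limited by how many arrays there are.

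Of 27648 spots, 15116 had 1 gene symbol, 102 had several and 12430 were not listed. Spots of a gene were averaged per array (6793 genes), and other spots were kept singly. The linear model (limma 3.58.1, R 4.3.3) had 1 mean per background (6 residual degrees of freedom) and used empirical Bayes moderation and Benjamini-Hochberg adjustment over 19325 features, called under 0.05. The fit was tested on simulated data. Genes were named by rule: the 3 members, the 5 most and 3 least like their mean by Pearson r, the 2 most like each member, and up to 4 genes of each list by p of the difference. Genome neighbours were named after their values were seen. The members, lists and alternatives were chosen with earlier results of these data known. Alternatives were centring, scaling, robust moderation, array weights, print lot, Cy5 gain or replicate number as a block, separate fits, single spots, named genes alone, subsets of arrays and leaving out each array. The 2 spot pairs of Fbp1 were fitted singly after the data were seen.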

Additional observations from a re-analysis of the deposited data

Results flagged for a closer look

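Fbp2 had a positive ratio on all 4 Rover arrays and a negative ratio on all 4 sitter arrays, with a Rover minus sitter difference of 2.94 on the log2 scale. Of all features 0.388% had this split of signs as deposited. The limma test of the difference itself did not pass (adjusted p = 0.458), and after centring sitter 1 turned to 0.09, so that the split of signs no longer held.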

How the results depend on the processing

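Rover minus sitter stayed positive and uncalled for Fbp1, Fbp2 and Lsp2 under all 59 alternative fits of these 3 results, with limma adjusted p from 0.251 to 0.876. Leaving out each array gave 0.87 to 1.58 for Fbp1, 1.98 to 3.41 for Fbp2 and 1.34 to 2.54 for Lsp2; Fbp2 and Lsp2 were lowest without sitter 4. The Rover mean of Fbp1 turned negative for its first spot pair (-0.32) and ran from -0.21 to 0.50 with an array left out. At the lower Cy5 gain alone, Fbp1 in sitter (-1.80) and Fbp2 in Rover (2.01) passed. Lsp2 in sitter passed with array weights (-1.65), and Fbp1 in sitter for its first spot pair (-1.13). With an array left out, Fbp2 in Rover ran from 0.79 to 2.01 and passed without sitter 4, and Lsp2 in sitter ran from -2.01 to -0.81 and passed without sitter 1. The cause was not tested.

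Features called in the difference numbered 9 as deposited, 15 centred, 1 centred and scaled, 17 as single spots, 21 with named genes only and 0 at the lower Cy5 gain (limma, 1313 at an unadjusted p under 0.05). In sitter 4583 became 2573 centred, 2648 fitted by itself and 1596 with named genes only, and 22 (without sitter 3; 24 without sitter 2) to 5023 with an array left out. In Rover 9019 became 3310 with named genes only. Fewer features are tested there. The positive share of calls depends on the centring: 328 of 9019 in Rover became 4780 of 9304, 140 of 4583 in sitter became 522 of 2573, and 4 of 9 in the difference became 12 of 15.

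The labels do not say that arrays of the same replicate number share larvae or RNA. Number 1 is also print lot A, and numbers 2 to 4 are all of lot B. Scanner gains were partly shared too: number 2 had 74 for Cy3 and 64 for Cy5 on both arrays, and number 3 had 64 for Cy5 on both. Between arrays of the same number, deviations from the background means correlated at 0.31, 0.12, 0.06 and 0.06 for numbers 1 to 4. Of the Rover arrays, 2 of 4 correlated best with their own number. With the replicate block the count of the difference was 7, and Fbp1, Fbp2 and Lsp2 had adjusted p-values of 0.404, 0.362 and 0.372.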

Other observations

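The arrays on which the storage genes were extreme shared other extreme genes. Of the 20 genes of most positive ratio on Rover 3 and the 20 of most negative ratio on sitter 4, 6 were the same, 30% of each list: Fbp2, Lsp2, FucTB, Obp99b, CG1850 and CG9360. The arrays and genes were chosen after their values were seen. As the arrays are those on which Fbp2 and Lsp2 were extreme, both genes are in the count by that choice. FucTB, Obp99b and CG1850 had already been named for following the members. Other pairs of arrays were not counted, so the 30% has no share to be set beside. On sitter 3, where Fbp1 was lowest, the most negative genes were Eig71Ee (-5.03), CG7601 (-4.29) and the alpha-mannosidase gene LManVI (-4.09). CG9360 (-2.50 on sitter 3 and -2.20 on sitter 4) and CG11893 (-3.01 and -2.04) were among the 10 most negative on both sitter arrays. On Rover 4, where Fbp1 was highest, Eig71Ee (4.75) had the most positive ratio, and it ranked 4 on Rover 3 (3.63). The 10 most positive genes of Rover 4 held LManV (1.79) and LManVI (1.66) as well as Obp99b (1.70), CG1850 (1.68) and Fbp2 (1.67).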
